A study of Mus musculus with 384 samples.

Results

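The genes described here are 40 genes of the actin cytoskeleton and of cell motility in tumour-infiltrating T cells of the mouse. They were set as a list of names, with earlier results of these data known, and all 40 named symbols were among the 23420 gene symbols of the expression table. They comprise 6 genes for actin and its monomer-binding proteins, 6 for filament severing and capping, 7 for the Arp2/3 complex, 3 for nucleation promoting factors, 8 for small GTPases and their regulators, 4 for myosin II and 6 for membrane linkers, crosslinkers and the intermediate filament vimentin.

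Actin monomers assemble into filaments at the edge of a moving cell, where the Arp2/3 complex starts new branches on existing filaments once a WASP or WAVE family protein has activated it under the control of Rac and Cdc42. Cofilin and its partners take old filaments apart, capping protein stops the growth of filament ends, and profilin and the thymosins hold the monomer pool. Myosin II pulls on the filaments and ERM proteins tie them to the membrane, and T cells use the same machinery to crawl through tissue and to build the contact with a target cell.

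Single T cells from B16F10 tumours, a transplantable melanoma of C57BL/6 mice, were profiled by Smart-seq2, which amplifies whole transcripts of 1 cell per well without molecular identifiers. The mice were of strain C57BL/6 and were either wild type or Il27ra knockout, that is without the receptor chain for the cytokine IL-27, and their ages were not given in the labels. The 4 plates were titled CD8 of source WT4, CD8 of source KO4, CD4 of source WT4 and CD4 of source KO4, although the treatment label names CD8 cells alone, and each plate had 94 single-cell wells, 1 well with a population of cells and 1 well with no cell. Each genotype had 1 source, so genotype, source and plate cannot be told apart, and nothing in the labels said how many animals a source held. Every group carried the same tumour, and no other allele or agent was named.

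Levels are FPKM, that is sequenced fragments per transcript length and library size, and a gene was counted as detected at 1 FPKM or more. Of the 94 cells of each plate, those that reached 1000 detected genes entered every comparison. These were 72 wild-type CD8, 77 knockout CD8, 74 wild-type CD4 and 78 knockout CD4 cells, with medians of 2530.5, 2243, 2047 and 2091 detected genes, and the first of these plates had the highest depth. Reads per cell were estimated only roughly, at medians of 809541, 572744, 596168 and 581482. Cd4 was detected in 0 of the 72 wild-type and 1 of the 77 knockout CD8 cells and in 89.2% and 91.03% of the CD4 cells, and Cd8a or Cd8b1 in 94.4% and 92.2% of the CD8 cells. Cd8b1 was also detected in 25.7% and 23.1% of wild-type and knockout CD4 cells, at a median of 2.58 and 2.42 FPKM among the detecting cells and at most 709 and 4.79 FPKM, and Cd8a in 2 of 74 and 0 of 78 of them. Il27ra itself was detected in 51.4% and 57.1% of wild-type and knockout CD8 cells and in 36.5% and 47.4% of wild-type and knockout CD4 cells, and its population level was 155.4 and 92.9 FPKM in CD8 and 244.6 and 133.4 FPKM in CD4. The deleted part of the gene was not given in the labels, so these gene-level values do not check the genotype labels, and "knockout" below means the plate so labelled. Cells at 1 FPKM or more for a melanoma, myeloid, B cell or stromal marker, or for the other lineage marker, made up 54.2%, 42.9%, 39.2% and 30.8% of the 4 plates in the same order. The melanoma gene Tyr, the endothelial gene Pecam1 and the CD8 gene Cd8b1 were left out of that rule. A cell-cycle marker was detected in 55.6%, 23.4%, 31.1% and 23.1% of cells.

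The table gives 1 value per gene symbol, and reads that fit several genes were divided by estimate, so the closest relatives among the 40 genes are shown first. The 2 non-muscle actins, Actb on mouse chromosome 5 (GRCm38 chr5:142903115-142906754, minus strand) and Actg1 on chromosome 11 (chr11:120345690-120348542, minus strand), had coding sequences of 1128 bases each that were 88.7% identical, with a longest shared run of 62 bases. Of all windows of 50 coding bases, 2.78% were shared by both. The first 120 coding bases of each are given 5′ to 3′ from GENCODE M21, with capitals at the 22 positions at which they differ.
Actb: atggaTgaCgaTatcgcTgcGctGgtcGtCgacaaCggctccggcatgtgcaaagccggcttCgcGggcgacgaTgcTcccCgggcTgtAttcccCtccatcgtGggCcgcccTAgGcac
Actg1: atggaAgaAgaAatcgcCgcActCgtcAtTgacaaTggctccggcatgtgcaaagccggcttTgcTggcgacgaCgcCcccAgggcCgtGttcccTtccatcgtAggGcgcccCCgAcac
The genes of the myosin regulatory light chains, Myl12a and Myl12b, lie next to each other on chromosome 17 (chr17:70993656-71002878 and chr17:70973133-70990890, both on the minus strand). Their coding sequences of 519 bases were 96.5% identical, and 37.7% of 50-base windows were shared. The first 120 coding bases differed at 5 positions, shown in capitals, so the split of reads between these 2 genes is uncertain.
Myl12a: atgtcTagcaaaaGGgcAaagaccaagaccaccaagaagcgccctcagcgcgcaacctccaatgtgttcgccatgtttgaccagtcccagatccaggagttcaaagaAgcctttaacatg
Myl12b: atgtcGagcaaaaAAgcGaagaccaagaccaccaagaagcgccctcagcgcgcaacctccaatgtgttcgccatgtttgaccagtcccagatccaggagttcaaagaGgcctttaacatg
The thymosin genes Tmsb4x and Tmsb10 were 70.4% identical over their coding bases, and the capping protein genes Capza1 and Capza2 76.9% over 861 coding bases. Neither pair shared a 50-base window.

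Actin genes are textbook targets of serum response factor, which binds a 10-base element called the CArG box. RefSeq promoter windows of 300 bases (250 before to 50 after the start, GRCm38.p6) were found for 37 of the 40 genes, and 3 of these genes (8.11%) held the element on either strand, which were Actg1, Arpc4 and Myl6. Of all 27025 genes with a window, 488 (1.81%) held it. No window was found for Actb, Rac1 or Rac2, so these genes were not searched for the element. The Actg1 window (chr11:120348446-120348745, minus strand) is shown with its CArG box in capitals, as the 1 actin window found among the 40 genes.
Actg1 promoter: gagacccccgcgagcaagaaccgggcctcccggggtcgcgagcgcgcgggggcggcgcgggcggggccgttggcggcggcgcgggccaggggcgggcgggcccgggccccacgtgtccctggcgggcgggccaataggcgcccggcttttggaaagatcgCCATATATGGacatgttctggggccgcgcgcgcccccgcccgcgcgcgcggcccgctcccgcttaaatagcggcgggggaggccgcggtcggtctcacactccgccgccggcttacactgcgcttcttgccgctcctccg
A match describes letters in this window and does not show that the factor binds there.

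The actin genes were expressed by nearly every kept T cell. Of the 40 genes, 34 were detected in at least 50% of kept cells on each of the 4 plates, as were 810 genes (3.46%) of the whole table. A limit of 5 FPKM left 31 of the 40. Detection in 90% or more of cells on every plate held for 7 of the 40 genes and for 0.525% of the genes of the table. These 7 were Actb, Actg1, Pfn1, Tmsb4x, Tmsb10, Cfl1 and Coro1a. Fewer than 50% of cells on at least 1 plate held Arpc3, Was, Wipf1, Rhoh, Dock8 or Ezr. A kept cell held a median of 35, 34, 32 and 32 of the 40 transcripts on the wild-type CD8, knockout CD8, wild-type CD4 and knockout CD4 plates. The number held followed the number of all detected genes (Pearson r of 0.70, 0.66, 0.64 and 0.64 across the 72 to 78 cells of a plate, which share their source and differ in depth).

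**Figure D1:**
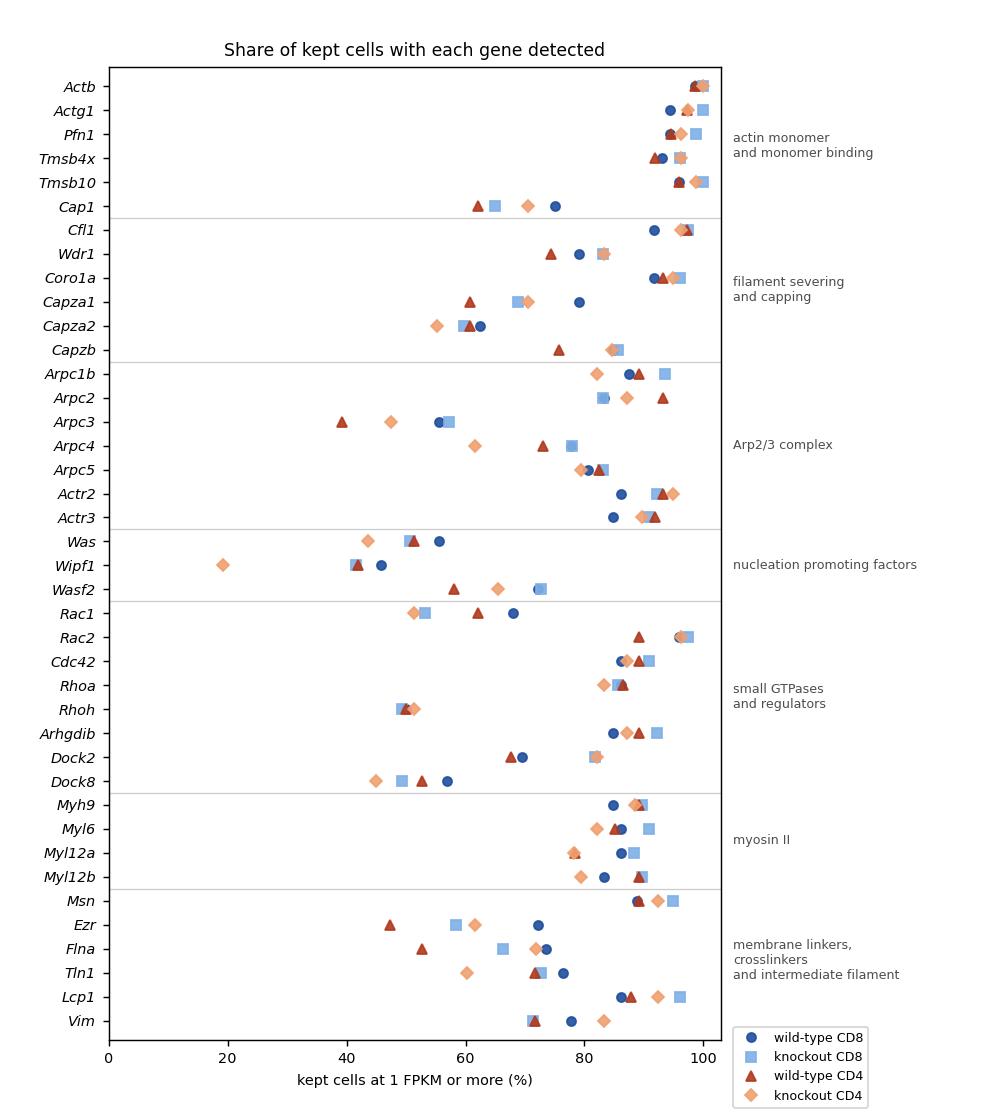
The x axis gives the share of kept cells at 1 FPKM or more for each of the 40 genes, grouped by role on the y axis, with 1 point per plate. The actin, profilin, thymosin and cofilin genes sit above 90% on every plate, and Wipf1 falls to 19.2% on the knockout CD4 plate.

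Together the 40 genes took a large part of the FPKM of a cell. Their median share of a cell's summed FPKM was 5.44%, 4.17%, 5.02% and 5.43%, and their share in the population libraries was 5.65%, 5.04%, 5.09% and 6.27%, each in the order wild-type CD8, knockout CD8, wild-type CD4 and knockout CD4. All values that follow as sets of 4 are in this order. In the population libraries Actb ranked 4, 3, 7 and 7 and Actg1 ranked 6, 5, 4 and 3 among all genes by FPKM. Between 7 and 11 of the 40 genes were among the 100 highest of a library.

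**Figure D2:**
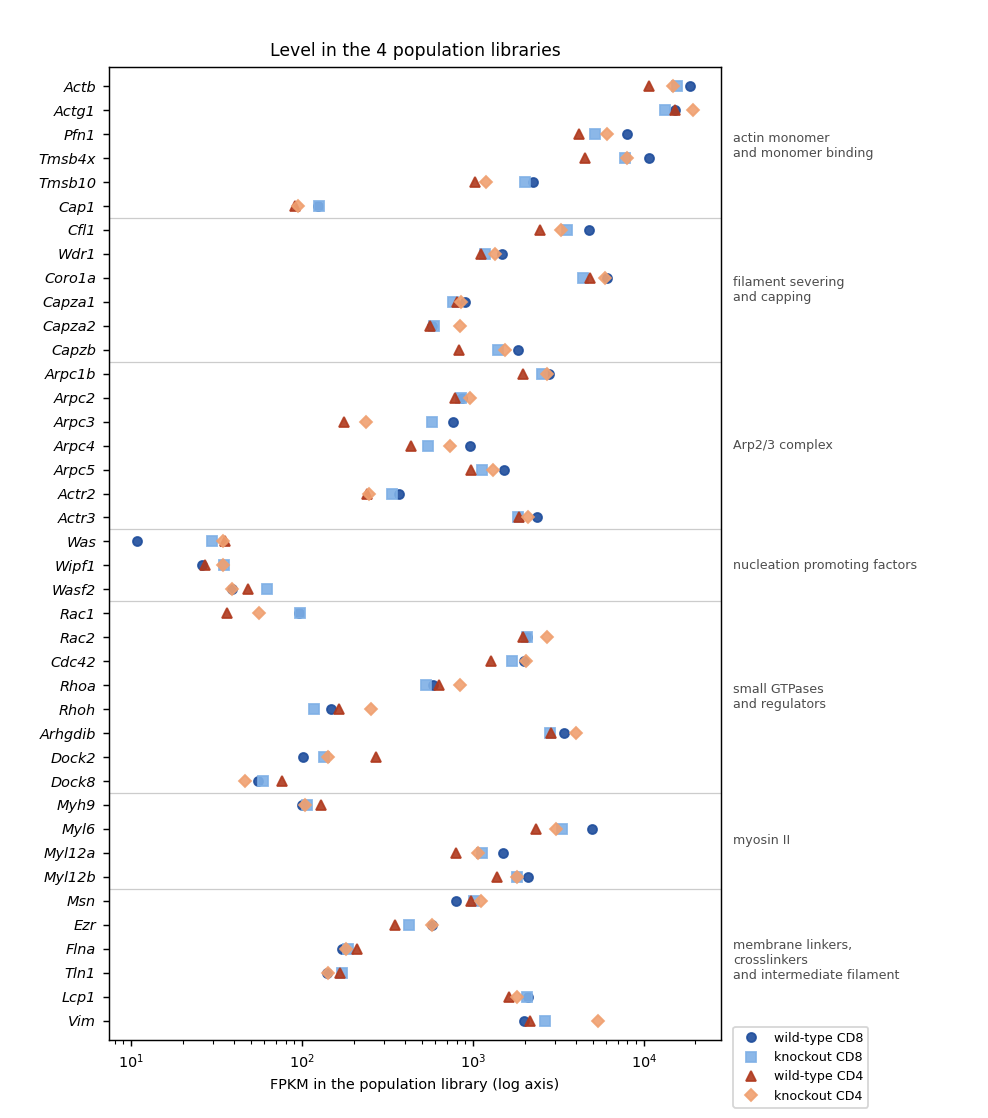
The x axis, on a log scale, gives the FPKM of each of the 40 genes in the population library of each plate, with 1 point per library. Actb and Actg1 lie between 10653 and 19451 FPKM in all 4 libraries, and Was, Wipf1 and Wasf2 between 10.7 and 62.5 FPKM.

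Among actin and its monomer-binding proteins, Actb (beta-actin) measured 18704, 15581, 10653 and 14846 FPKM in the population libraries. Its median over cells was 11232, 6411, 5794 and 5717 FPKM, with lowest cells at 0, 2.21, 0 and 54.4 and highest cells at 28876, 33626, 18439 and 19710 FPKM. Cells of all plates overlapped widely. Actg1 (gamma-actin) measured 15142, 13342, 15082 and 19451 FPKM in the same libraries, and its groups overlapped. Pfn1, which encodes profilin and feeds monomers to growing ends, measured 7962, 5176, 4165 and 6042 FPKM. Tmsb4x, which encodes the monomer-sequestering thymosin beta 4, measured 10725, 7724, 4488 and 7954 FPKM. Its relative Tmsb10 measured 2250, 2016, 1022 and 1190 FPKM. Cap1, a partner of cofilin in monomer recycling, was the lowest of this group at 124.1, 125.4, 90.9 and 94.6 FPKM.

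Genes that take filaments apart were also high. Cfl1 (cofilin) measured 4785, 3545, 2451 and 3286 FPKM, and Coro1a, a coronin of blood cells, 6086, 4409, 4805 and 5926 FPKM. Wdr1, a cofilin partner, lay between 1118 and 1470 FPKM. The 3 capping protein genes were lower and were missed in more cells. Capza1 was detected in 79.2%, 68.8%, 60.8% and 70.5% of cells, Capza2 in 62.5%, 59.7%, 60.8% and 55.1%, and their common beta partner Capzb in 84.7%, 85.7%, 75.7% and 84.6%.

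The 7 Arp2/3 genes code for parts of 1 complex, yet their levels were unequal. FPKM is scaled to transcript length, so genes can be set side by side within a library. In the wild-type CD8 library Arpc1b measured 2776 FPKM, Actr3 2380, Arpc5 1513, Arpc4 955, Arpc2 858, Arpc3 758 and Actr2 370. In the wild-type CD4 library the same genes measured 1957, 1855, 978, 432, 785, 176.6 and 238.3 FPKM, so Arpc3 was the lowest there. Transcripts of all 7 genes were detected together in 34 of 72, 28 of 77, 17 of 74 and 23 of 78 cells (47.2%, 36.4%, 22.97% and 29.5%), with a median of 6 of the 7 on every plate. Arpc3 was the least often detected of the 7, in 55.6%, 57.1%, 39.2% and 47.4% of cells (exact Clopper-Pearson 95% intervals 43.4 to 67.3, 45.4 to 68.4, 28.04 to 51.2 and 36.01 to 59.1). These intervals cover counting error only.

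The nucleation promoting factors, which switch the complex on, were among the least abundant of the 40 genes. Was, which encodes WASP of blood cells, measured 10.7, 29.5, 35.3 and 34.3 FPKM in the population libraries. Wipf1, its stabilising partner WIP, measured 25.99, 34.7, 27.2 and 34.5 FPKM. Wasf2, which encodes the WAVE protein that acts downstream of Rac, measured 38.7, 62.5, 47.96 and 38.6 FPKM. Only Was in the wild-type CD8 library stood well below the other 3 libraries.

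Among the GTPases, the blood-cell form Rac2 far exceeded Rac1. In the population libraries Rac2 measured 2059, 2064, 1948 and 2702 FPKM and Rac1 96.4, 96.8, 36.1 and 55.99 FPKM. Cdc42 lay between 1267 and 2053 FPKM and Rhoa, which drives myosin contraction, between 529 and 839 FPKM. Rhoh, a GTPase-deficient family member of blood cells, measured 148.1, 116.5, 164.3 and 254.1 FPKM. Arhgdib, which holds small GTPases inactive in the cytosol, was the highest of this group at 3423, 2802, 2855 and 3991 FPKM. The exchange factors were lower, with Dock2, which activates Rac, between 101.6 and 270.5 FPKM, and Dock8, which activates Cdc42, lowest in the knockout CD4 library at 46.4 FPKM and highest in the wild-type CD4 library.

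Of the myosin II genes, the heavy chain Myh9 lay between 99.4 and 128.6 FPKM, while the light chain Myl6 measured 4937, 3322, 2348 and 3046 FPKM. The regulatory light chains measured 1502, 1123, 791 and 1067 FPKM for Myl12a and 2088, 1795, 1386 and 1796 FPKM for Myl12b. Among the linkers, the ERM gene Msn (moesin) lay between 795 and 1112 FPKM and its relative Ezr (ezrin) between 350.1 and 576 FPKM. Lcp1, the bundling protein plastin of blood cells, lay between 1616 and 2094 FPKM. The filament crosslinker Flna lay between 170.5 and 208.8 FPKM, and Tln1 (talin), which couples integrins to actin, between 139.95 and 171.5 FPKM. Vim measured 1992, 2621, 2156 and 5390 FPKM, and its highest value was that of the knockout CD4 library.

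CD4 and CD8 cells were compared over plate means of log2(FPKM + 1) with limma, with the source as a block. None of the 40 genes passed an adjusted p of 0.05, where 7.44% of the 8427 genes tested did. By unadjusted limma p below 0.05, 1 gene, Arpc3, was found, against 22.4% of all genes. In the 4 population libraries 0 of the 40 passed in the same limma model, against 0.0363% of 11008 genes tested, and Arpc3 and Tmsb10 were below an unadjusted p of 0.05, as were 14.5% of all genes. The fits had 1 residual degree of freedom, so limma took most of the spread between plates from all genes tested. Their p-values cover only these plates and do not measure the spread of each gene on its own. In simulated data the fit of plate means found 4% of genes changed by 1 log2 unit and 62% of genes changed by 2, and the population fit was not simulated. In these bulk and averaged values, fewer expressing cells and less RNA per cell cannot be told apart. The median difference of the 40 genes, CD4 minus CD8, was -0.21 in cells and -0.11 in the population libraries. Over all genes tested it was -0.27 and -0.10, and when cells were matched on detected genes the medians in cells became 0.27 for the 40 genes and -0.01 for all genes.

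**Figure D3:**
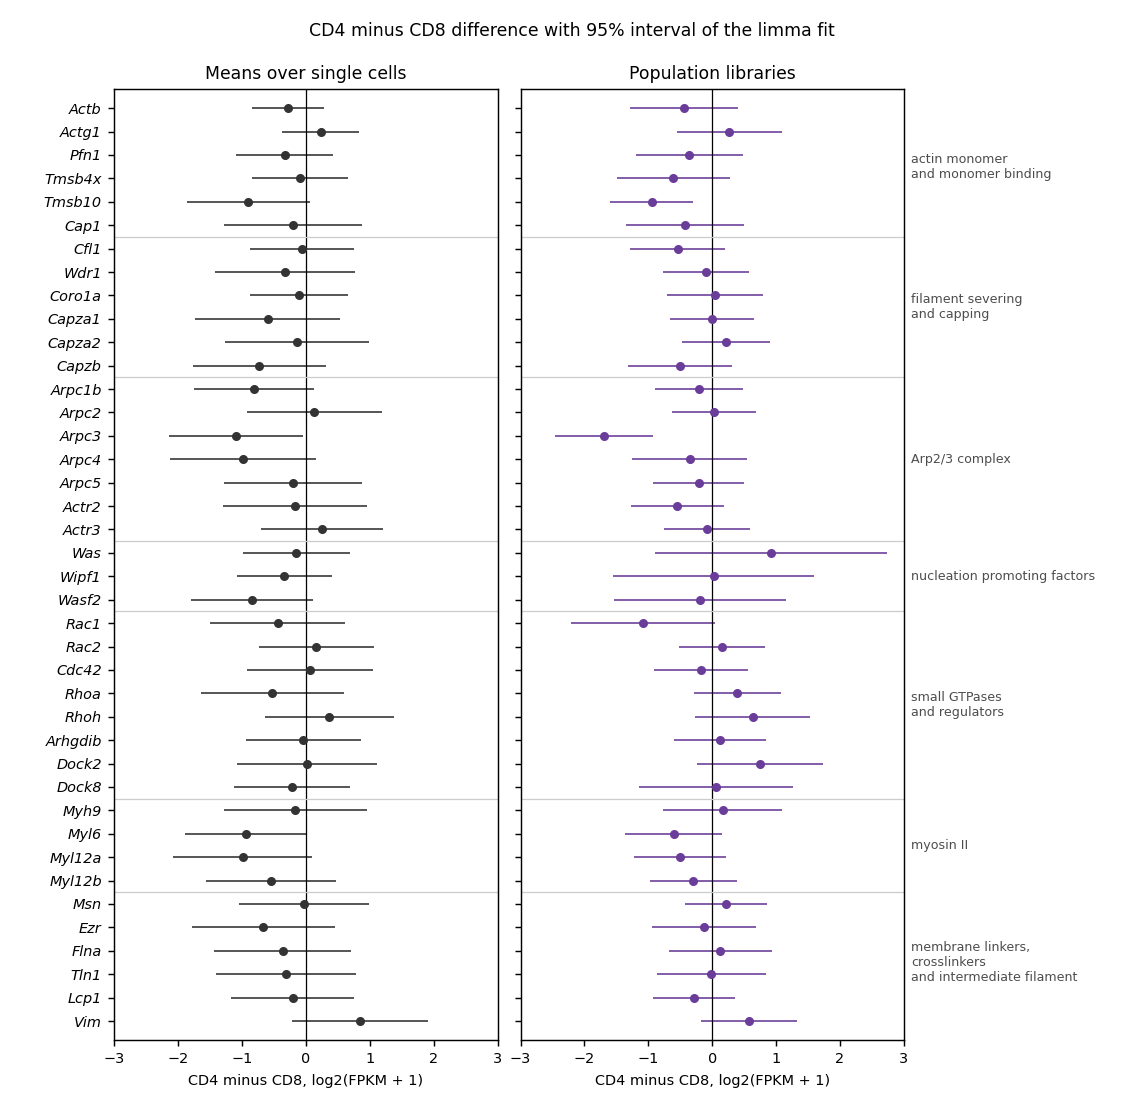
Points give the CD4 minus CD8 difference in log2(FPKM + 1) for each gene and bars the 95% interval of the limma fit, for plate means of cells on the left and population libraries on the right. Arpc3 lies lowest in both panels at -1.09 and -1.69, and the intervals of all other genes include 0, except that of Tmsb10 in the right panel.

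The largest differences were those of Arpc3, a small subunit of the Arp2/3 complex. It measured 758 and 576 FPKM in the CD8 population libraries and 176.6 and 236.8 FPKM in the CD4 libraries, so the groups did not overlap. The difference was -1.69 (95% interval -2.45 to -0.92, limma adjusted p = 0.123) in population libraries and -1.09 (-2.15 to -0.04, limma adjusted p = 0.201) in cells. Of 10 alternative settings of the population fit, only 3 took the Arpc3 difference past the threshold. These were no filter on low genes (limma adjusted p = 0.000205), libraries rescaled to equal totals (0.0452) and the median of all genes subtracted (0.0488). In each of these 3 settings a larger share of all genes tested passed as well, as given at the end. The passes therefore cannot be read as particular to Arpc3. In cells matched on detected genes the Arpc3 difference was 0.06, so the difference in cells did not hold at equal gene detection. Set against Arpc2, a core subunit of the same complex, Arpc3 had log2 ratios of -0.18 and -0.55 in the CD8 and -2.15 and -2.03 in the CD4 population libraries. The exact two-sided permutation p of that ratio was 0.333, the smallest that 2 against 2 libraries can give. In cells the log2 ratio was -1.50 and -1.17 in CD8 and -2.10 and -0.99 in CD4, which overlapped, with an exact two-sided permutation p of 1.

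Both CD4 values were below both CD8 values, in cells and in population libraries alike, for 5 of the 40 genes (12.5%), against 17.6% of the 8223 genes that had both measures. These 5 were Actb, Tmsb10, Arpc3, Myl6 and Myl12a. Tmsb10 differed by -0.90 in cells (limma adjusted p = 0.263) and -0.95 in population libraries (limma adjusted p = 0.198). Myl6 differed by -0.93 and -0.60, and Myl12a by -0.99 and -0.50. Rhoh alone lay above in both measures (2.5% of the genes, against 4.11% of all), by 0.37 and 0.63. These shares of the 40 genes were below the shares of all genes.

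The share of Actb in the summed FPKM of the 2 actins was lower on both CD4 plates than on both CD8 plates. By mean log2(FPKM + 1) over cells, Actb stayed above Actg1 on every plate. These means were 12.39 and 11.70 (wild-type CD8), 12.39 and 11.80 (knockout CD8), 11.93 and 11.78 (wild-type CD4), and 12.29 and 12.18 (knockout CD4). In the population libraries Actb made up 55.3% and 53.9% of the summed actin FPKM in CD8 and 41.4% and 43.3% in CD4, and in cells 54.9% and 59.3% against 45.7% and 44.8%. The log2 ratio of Actb to Actg1 was lower in CD4 by 0.71 in population libraries and by 0.69 in cells, with no overlap. The exact two-sided permutation p was 0.333 for each, which is the smallest possible. Actb took less of the pair in CD4 cells positive for the regulatory T cell gene Foxp3 than in Foxp3-negative CD4 cells, with values given below. The part of Foxp3-positive cells in the difference between CD4 and CD8 plates was not tested. The ratio of Rac2 to Rac1 in population libraries was 21.4 and 21.3 in CD8 and 53.9 and 48.3 in CD4, but in cells it was 10.4 and 10.01 against 9.27 and 14.98, which overlapped. Ratios of Tmsb4x to Tmsb10, Capza1 to Capza2 and Myl12a to Myl12b overlapped in at least 1 of the 2 measures.

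Vim had the highest positive difference in cells, 0.85 (95% interval -0.21 to 1.91, limma adjusted p = 0.355), and 0.58 in population libraries (limma adjusted p = 0.473). Without cells positive for Foxp3, the transcription factor of regulatory T cells, the difference was -0.09 (limma adjusted p = 0.956). Without the knockout CD4 plate it was 0.01 in cells and -0.08 in population libraries. Only in cells matched on detected genes did it pass the threshold, at 1.76 (limma adjusted p = 0.0438).

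Foxp3 was detected in 0, 2, 27 and 37 kept cells. Vim averaged 9.16 on the log2(FPKM + 1) scale in Foxp3-positive and 6.11 in Foxp3-negative wild-type CD4 cells, and 9.74 and 8.13 in knockout CD4 cells. It was detected in 85.2% against 63.8% and in 86.5% against 80.5% of these cells. Rhoh was higher in Foxp3-positive cells by 1.92 on the wild-type and 1.79 on the knockout plate, Capza2 by 1.89 and 2.74, and Ezr by 0.95 and 2.95. Tmsb10 was lower by 0.75 and 0.38. Mean FPKM of Actb and Actg1 was 6956 and 9405 in Foxp3-positive and 5579 and 5956 in Foxp3-negative wild-type CD4 cells. In knockout CD4 cells it was 6521 and 9816 in Foxp3-positive and 6435 and 6340 in Foxp3-negative cells. Foxp3-positive cells held a median of 2316 and 2076 detected genes and Foxp3-negative cells 1966 and 2095, and the part of depth in the wild-type differences was not tested. Cells of 1 plate are not replicates, so these differences carry no test.

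For genotype there was 1 plate per group and no test. A difference of 1 or more in mean log2(FPKM + 1) was used as a call, and it describes these plates only. In CD8 cells 0 of the 40 genes were higher and 2 were lower in the knockout plate by this rule, against 2.07% and 9.19% of the 8117 genes with enough detection. The 2 were Capza1 and Rac1. Of the 1754 genes detected in at least 50% of cells of any plate, 25.1% passed in either direction. The median difference of the 40 genes was -0.18, near the median of all genes, -0.22. In the population libraries 1 of the 40, Was, was higher (18.6% of 11761 genes) and 0 were lower (14.9%). The median there was -0.17, against 0.05 for all genes, and the direction in cells and in the library was the same for 18 of the 40 genes.

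**Figure D4:**
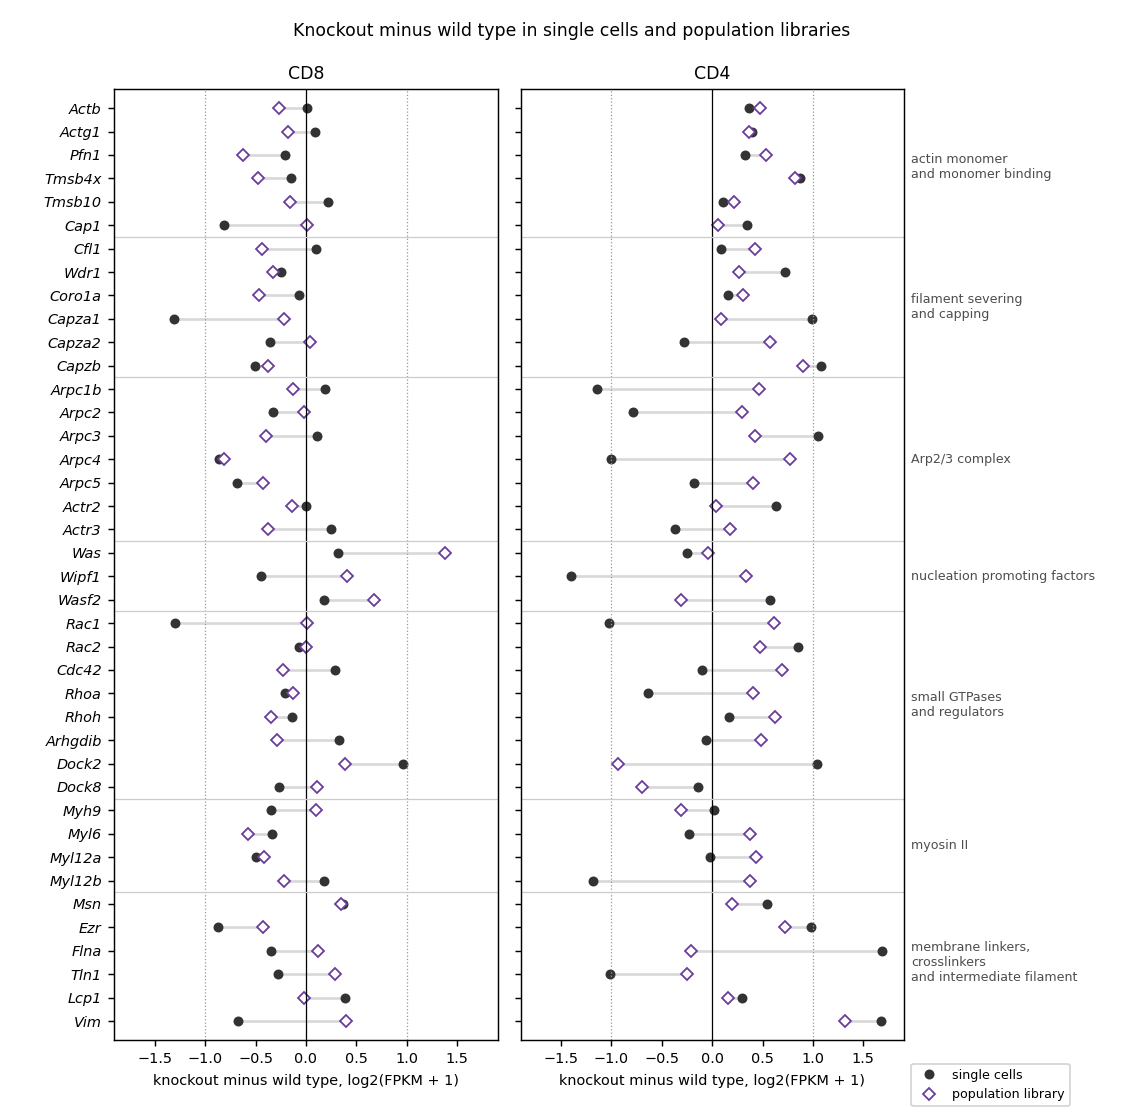
The x axis gives the knockout minus wild-type difference in log2(FPKM + 1) for each of the 40 genes, with filled circles for plate means of cells and open diamonds for the population libraries, and dotted lines at -1 and 1. In CD4, 33 of the 40 diamonds lie above 0, while the circles spread to both sides, and Vim lies above 1 in both.

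Capza1, the alpha subunit of capping protein, had medians of 420 and 240 FPKM in wild-type and knockout CD8 cells, with lowest cells at 0 and highest cells at 1515 and 1412 FPKM. It was detected in 79.2% (95% interval 67.98 to 87.8) and 68.8% (57.3 to 78.9) of them. The mean log2 values were 6.99 ± 3.82 (SD, n = 72 cells) and 5.68 ± 4.03 (n = 77), a difference of -1.31, and the population libraries differed by -0.22. Rac1, which drives branched actin through WAVE, had medians of 79.8 and 7.47 FPKM and was detected in 68.1% (56.01 to 78.6) and 53.2% (41.5 to 64.7) of cells. Its difference was -1.30 in cells, -0.51 in cells matched on detected genes and 0.00532 in the population libraries. Was, at the low end of the 40 genes, measured 10.7 and 29.5 FPKM in the population libraries, a difference of 1.38, and differed by 0.32 in cells. For Capza1 and Rac1 the spread between cells of a plate exceeded the difference between plates. The cells and the library of 1 plate did not agree on Rac1.

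The CD8 result moved with the choice of cells. Without cells that held a marker of another cell type, 33 and 44 cells were left. There 16 of the 40 genes were lower by 1 or more, and the median was -0.88, against -0.42 for all genes. With cells of at least 2000 detected genes, 10 were lower and the median was -0.75, against -0.26 for all genes. With cells matched on detected genes (49 and 49), 1 was lower, 2 were higher and the median was 0.01, against 0.03 for all genes. Without cells positive for a cell-cycle gene the median was 0.10, against -0.06 for all genes. The share of all genes past the rule in these cell sets is not given here.

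In CD4 cells more of the 40 genes passed the same rule. By it 5 were higher and 6 lower in the knockout plate, together 27.5% of the 40 genes, against 5.04% of the 7063 genes with enough detection (2.53% higher and 2.51% lower). Of the 1754 genes detected in at least 50% of cells of any plate, 11.5% passed, and widely detected genes like these 40 are more fairly set beside that share. The higher genes were Flna (1.69), Vim (1.67), Capzb (1.08), Arpc3 (1.05) and Dock2 (1.04). The lower genes were Wipf1 (-1.40), Myl12b (-1.18), Arpc1b (-1.14), Rac1 (-1.02), Tln1 (-1.02) and Arpc4 (-1.002). The median of the 40 genes was 0.13, against -0.04 for all genes.

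The population libraries gave another picture. There 33 of the 40 genes were higher in the knockout CD4 library, with a median difference of 0.37 against 0.01 for all genes, and 1 of the 40 passed the rule, as did 22.6% of 11344 genes in the higher direction, while 0 were lower by 1 or more (20.8% of all). All 7 Arp2/3 genes were higher in the library, whereas 5 of the 7 were lower in cells. The share of all genes that were higher in that library is not given here, so these counts cannot be read as particular to the 40 genes. Of the 11 genes called in cells, 4 had the same direction in the library, and Vim was past 1 in both. Wild-type and knockout CD4 libraries held 9918 and 10449 detected genes and summed to 1375770 and 1548050 FPKM, so both values were higher in the knockout library. FPKM is already scaled to library size, so these sums do not measure the reads of a library. The part of that gap in the library differences was not tested.

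Vim, the intermediate filament gene, was the 1 gene past the rule in both measures of the CD4 plates. Its median was 597 FPKM in wild-type and 1461 FPKM in knockout CD4 cells, with lowest cells at 0 and highest cells at 10760 and 15629 FPKM. Detection was 71.6% (95% interval 59.95 to 81.5) and 83.3% (73.2 to 90.8), and the cells of the 2 plates overlapped over most of their range. The mean log2 values were 7.23 ± 4.74 (SD, n = 74) and 8.90 ± 4.35 (n = 78), and the population libraries measured 2156 and 5390 FPKM, a ratio of 2.50. The difference was 2.02 without Foxp3-positive cells and 2.13 in cells matched on detected genes, and 0.74 with arithmetic means. In CD8 cells Vim differed by -0.67, and in the CD8 population libraries by 0.40.

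Flna, the largest difference in CD4 cells, was not seen in the library. Its median was 2.84 and 87.97 FPKM in wild-type and knockout cells, and detection 52.7% (40.8 to 64.4) and 71.8% (60.5 to 81.4). The population libraries measured 208.8 and 180.4 FPKM, a difference of -0.21. Wipf1 was detected in 41.9% (30.5 to 53.9) and 19.2% (11.2 to 29.7) of CD4 cells, yet its libraries measured 27.2 and 34.5 FPKM. Dock2 went from 3.92 to 4.96 in mean log2 and from 270.5 to 141.3 FPKM in the libraries. For these genes the plate's cells and its population well pointed in opposite directions. In cells that held at least 1 Cd3 gene, 9 of the 40 genes were higher and 3 lower by the rule, with a median of 0.25 against -0.01 for all genes. The share of all genes past the rule in these cells is not given here, so the counts cannot be read as particular to the 40 genes. The difference of Myl12b was 0.40 among cells that reached 2000 detected genes.

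**Figure D5:**
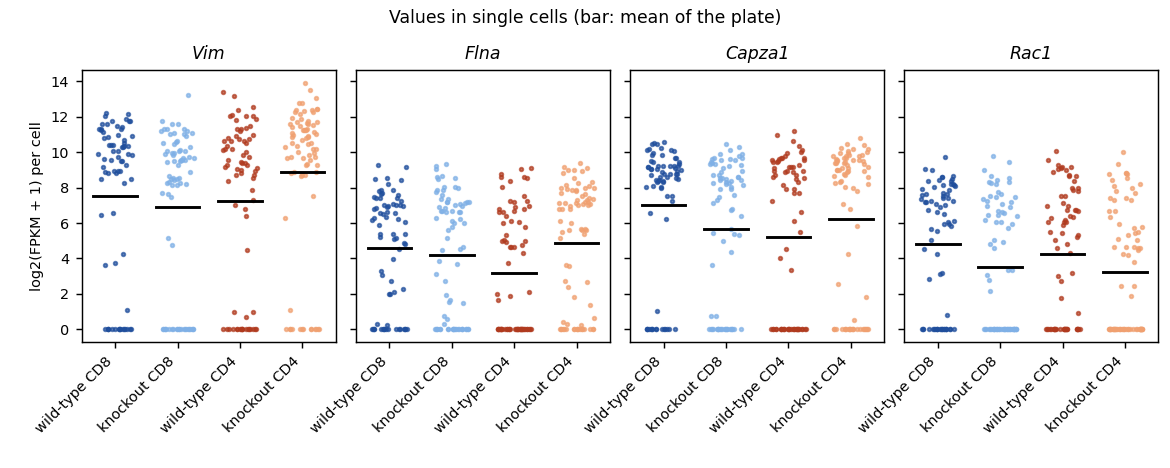
Each point is 1 kept cell, the y axis is log2(FPKM + 1), the black bar is the plate mean, and panels show Vim, Flna, Capza1 and Rac1 on the 4 plates. The points split into cells at or near 0 and cells with a clear level, and the plate means follow the share of cells near 0.

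Some pathway groups of the 40 genes leaned one way between the CD4 plates. All 6 actin and monomer-binding genes were higher in the knockout plate in cells (0.11 to 0.87) and in the library (0.06 to 0.83). Over 14 settings of the CD4 comparison, Pfn1 changed sign in 2 and Actb and Cap1 in 1 each, while Actg1, Tmsb4x and Tmsb10 kept theirs. In CD8 the same 6 genes were split in cells, and 5 of the 6 were lower in the library. The 3 capping genes Capza1, Capza2 and Capzb differed by 0.99, -0.28 and 1.08 in CD4 cells and by -1.31, -0.36 and -0.50 in CD8 cells. None of these group directions was tested, and the share of all genes that were higher is not given here.

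Across cells, the 40 genes rose and fell together to different degrees. The correlation of a gene's log2 value with the mean of the other 39 was described within each plate of 72 to 78 cells, whose cells share source and differ in depth. Its median over the plates was highest for Actb (0.81), Pfn1 (0.73), Cfl1 (0.71) and Actg1 (0.71). It was lowest for Tln1 (0.19), Arpc3 (0.20) and Dock2 (0.21). The median over the 40 genes was 0.79 on the wild-type CD8 plate and 0.44, 0.42 and 0.44 on the others. The wild-type CD8 plate also held 5 cells with fewer than 10 of the 40 transcripts, and every other plate held 1. Of these 5 cells, 3 held a marker of another cell type and 1 held no Cd3 gene.

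Genes of the same machinery outside the 40 were taken from a list of related regulators and binding proteins. In cells 100 of them could be tested between CD4 and CD8, and 3 were higher and 2 lower in CD4 by the limma adjusted p, against 1.12% and 6.32% of all genes. In population libraries 0 of those tested passed, with 8 (6.96% of them) below an unadjusted limma p of 0.05, against 14.5% of all genes. Capg, a capping protein of the gelsolin family, was higher by 1.89 (limma adjusted p = 0.0209) and measured 664, 782, 1518 and 2400 FPKM in the libraries. Lmna, which encodes the nuclear lamins A and C, was higher by 1.17 (limma adjusted p = 0.0371), and Swap70, an actin-binding signalling protein, by 0.83 (limma adjusted p = 0.0469). Zyx (zyxin), which marks strained filaments at adhesions, was lower by 2.05 (limma adjusted p = 0.0101), and Ppp1cb, a catalytic subunit of the myosin phosphatase, was lower by 1.47 (limma adjusted p = 0.00966). The difference of Ppp1cb in the libraries was -0.20.

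Between genotypes, 1 of 96 such genes was higher and 17 were lower by 1 or more in CD8 cells, against 2.07% and 9.19% of all genes with enough detection. As a share, 18.75% passed in either direction, below the 25.1% of genes detected in at least 50% of cells of any plate. In CD4 cells 4 of 94 were higher and 4 lower, together 8.51%, against 2.53% and 2.51% of all genes and 11.5% of the widely detected ones. The lowest in CD8 were Twf2 (-1.79), Coro1b (-1.59) and Myo1f (-1.53), and the highest were Ssh2 (1.28), Elmo1 (0.96) and Stk10 (0.87). Ssh2, a phosphatase that activates cofilin, was also higher in the CD8 library, at 23.1 and 69.7 FPKM. In CD4 cells the highest were Capg (2.12), Myo1g (1.91) and Cyfip2 (1.10), and the lowest were Pstpip1 (-1.82), Tpm4 (-1.31) and Arhgap30 (-1.22). Capg was also higher in the CD4 library by 0.66, whereas Pstpip1 differed there by 1.29.

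Lists of other common T cell genes were fitted alongside for comparison. Between CD4 and CD8 cells the median difference was -0.90 for 32 cytosolic ribosomal protein genes, of which 5 were lower by limma adjusted p, -0.20 for 18 integrin and adhesion genes, with 3 higher and 1 lower, and -0.68 for 20 T cell receptor signalling genes, with 4 lower. The median of the 40 actin cytoskeleton genes, -0.21, lay nearest that of the integrins.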

How the data were processed

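The authors deposited 1 table of TMM-normalized FPKM values for 23420 gene symbols in 384 wells. The aligner Bowtie, the estimator RSEM and the build mm10 are named, per the submitters' processing notes, with versions "not given in the sources used here". Reads shared between genes are divided by RSEM by estimate. The table holds no counts, and of values below 10 estimated reads, 49.8% were whole numbers to within 0.1 (20% if spread evenly), so estimated reads only describe depth. The median value of a single read, for a 2 kb gene, was 0.70 FPKM over kept cells. Without molecular identifiers, reads are not independent molecules.

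Wells were grouped by title, and cells with at least 1000 genes at 1 FPKM or more were kept. No doublet caller was run. Plate means of log2(FPKM + 1) were compared between CD4 and CD8 with limma 3.58.1 in R 4.3.3 (trend, source as a block, Benjamini-Hochberg adjustment), with genes tested if any plate had them detected in 10% of its kept cells. Population libraries were fitted in the same way, for genes at 1 FPKM or more in at least 2 of the 4. Each source gave 1 CD4 and 1 CD8 plate, so the source paired them. A difference on this scale understates changes of low genes. Genotype had 1 plate per group, so it had no test. The fit was tested on simulated data over 8427 genes, where it called 0% of 50 genes changed by 0.5 log2 units, 4% at 1, 62% at 2 and 100% at 4. Shares carry exact Clopper-Pearson 95% intervals for counting error only.

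The genes described in full are those past the threshold, those with the largest genotype difference or the highest or lowest level or share of their role, and the 5 pairs of relatives. Other pathway genes are named where they pass the threshold or are among the 3 largest genotype differences in each direction. Genes whose CD4 and CD8 values did not overlap, and those higher or lower in Foxp3-positive cells, were chosen after their values were seen. The genes and lists were chosen with earlier results of these data known. Coding sequences and positions come from GENCODE M21 (GRCm38), the assembly behind mm10, and promoters from RefSeq (GRCm38.p6), both computed here from the reference tables. The coding sequences of 1 pair of relatives are not reported here. The alternatives were other pseudocounts, filters, cell sets, scalings and fits, described at the end.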

Additional observations from a re-analysis of the deposited data

Results flagged for a closer look

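For 8 of the 40 genes the knockout minus wild-type difference in log2(FPKM + 1), with all kept cells and in the population library, was below 0 in CD8 and above 0 in CD4, and for Was it was the reverse. The difference between the lineages was not tested. The share of all genes with these patterns is not given here, so the count cannot be read as particular to the 40 genes. The median of all genes was -0.22 in CD8 cells and -0.04 in CD4 cells. Capza1 differed by -1.31 in CD8 cells and -0.22 in the CD8 library, and by 0.99 in CD4 cells and 0.083 in the CD4 library. Capzb, its partner in capping protein, differed by -0.50 and -0.38 in CD8 and by 1.08 and 0.90 in CD4. Ezr differed by -0.87 and -0.43 in CD8 and by 0.98 and 0.72 in CD4, and without Foxp3-positive cells the value in CD4 cells was -0.07. Of the monomer-binding genes, Pfn1 differed by -0.21 and -0.62 in CD8 and by 0.32 and 0.54 in CD4, and Tmsb4x by -0.15 and -0.47 in CD8 and by 0.87 and 0.83 in CD4. The cofilin partner Wdr1 differed by -0.25 and -0.33 in CD8 and by 0.72 and 0.26 in CD4. Coro1a differed by -0.067 and -0.46 in CD8 and by 0.16 and 0.30 in CD4, and Rhoh by -0.14 and -0.34 in CD8 and by 0.17 and 0.63 in CD4. Was differed by 0.32 and 1.38 in CD8 and by -0.25 and -0.040 in CD4. Under the alternatives Capza1 kept these signs throughout, whereas each of the other 7 of the 8 genes, and Was, turned in at least 1 setting of at least 1 lineage.

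The wells with no cell held 11, 8, 26 and 6 detected genes, and 2 of the 40 genes were among them. Ezr was listed at 194.8 FPKM in the no-cell well of the wild-type CD8 plate. Actb was listed at 1099 FPKM in the no-cell well of the wild-type CD4 plate, against a median of 5794 FPKM in the kept cells of that plate. The other 38 genes were listed at 0 in all 4 of these wells, and the source of either value was not tested.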

How the results depend on the processing

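The alternatives without cells with other markers, without cells with no Cd3 gene and with the median of all genes subtracted were chosen after seeing the data. The planned removal of cells with any marker of another cell type was not run, because nearly every kept cell held Tyr at 1 FPKM or more. Between CD4 and CD8, 0 of the 40 genes passed in cells under every alternative except matching on detected genes, with 1, and in population libraries 1 passed with no filter on low genes, when rescaled and with medians subtracted. With no replicate block, that is without the source pairing, 0 of the 40 passed in either fit. Among all genes tested, 7.44% passed in cells, against 0.225% at a pseudocount of 10, 3.74% with no filter on low genes, 3.44% for genes in 25% of cells, 0.122% in cells with 2000 genes, 1.95% in matched cells, 0.579% without other markers, 1.98% with arithmetic means, 2.17% without cycling cells, 3.10% without Foxp3-positive cells, 0.843% with medians subtracted (48 higher and 23 lower, against 94 and 533) and 0.831% with no replicate block. Leaving out 1 plate gave 0.320% (without knockout CD4) to 13.7% (without knockout CD8), and 0 of the 40 in each case. In population libraries 0.0363% passed, against 0% at a pseudocount of 0.1, 0.536% at 10, 4.46% with no filter, 1.52% rescaled, 2.09% with medians subtracted, 0.0182% with no replicate block and 0% to 0% when 1 library was left out. In knockout CD8 cells, 0 genes higher became 1 at a pseudocount of 0.1, 2 in matched cells, and 1 each without other markers, rescaled, in population libraries and with the median subtracted. The 2 lower became 4 at a pseudocount of 0.1, 0 at 10, 10 in cells with 2000 genes, 1 in matched cells, 16 without other markers, and 0 with arithmetic means and in population libraries. In knockout CD4 cells, 5 higher became 9 at a pseudocount of 0.1, 2 at 10, 9 without cells with no Cd3 gene, 0 with arithmetic means and 1 in population libraries. The 6 lower became 0 at a pseudocount of 10, 2 in cells with 2000 genes, 2 in matched cells, 3 without cells with no Cd3 gene, 1 with arithmetic means, 0 in population libraries and 3 with the median subtracted. Differences turned in the CD4 population library for Arpc1b (0.46), Arpc4 (0.77), Wipf1 (0.33), Rac1 (0.62), Myl12b (0.37), Dock2 (-0.93) and Flna (-0.21), in the CD8 library for Rac1 (0.00532), and for Myl12b in CD4 cells with 2000 genes (0.40). The shares of all genes past the genotype rule in the alternative cell sets are not given here. The cause of the turned differences was not tested. The estimated depth, with 1 plate per group, limits what can be said of genes such as Wipf1 whose median cell is near 0 FPKM.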
